A study of Mus musculus with 24 samples.

Results

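The genes described here are those of the 4 opioid receptors, Oprm1, Oprd1, Oprk1 and Oprl1, and of 2 opioid peptide precursors, Penk and Pdyn. Their rows were taken by gene symbol, and 6 of the 38215 gene rows matched, each once. The genes and tests were chosen with earlier results of these data known. Expression had been measured by RNA sequencing of total RNA from mouse dorsal root ganglia (DRG), where the sensory neurons of the limbs and trunk have their cell bodies. The groups were ganglia of CAST, DBA and C57 mice 5 days after crush of the sciatic nerve, labelled Ax5d and called injured here, and ganglia of CAST, DBA and C57 mice labelled Naive. Each of the 6 groups held 4 libraries, called biological quadruplicates in the series design, which gives 24 libraries. The labels name no transgene, drug or added allele in any group, and no source used here gives the age or sex of the mice. The treatment protocol speaks of sham injury while the sample labels say naive, and naive is used here. The samples are of bulk ganglia, and the labels do not say which share of its neurons ran in the crushed nerve or whether ganglia were pooled.

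Opioid receptors are receptors of the cell surface that act through inhibitory G proteins. In sensory neurons they open inwardly rectifying potassium channels, close voltage-gated calcium channels of the axon terminal and lower cyclic AMP, and so damp the release of transmitter from pain fibres. Oprm1 encodes the mu receptor, through which morphine acts, Oprd1 the delta receptor and Oprk1 the kappa receptor, while Oprl1 encodes the nociceptin receptor. Their peptides are cut from precursor proteins: Penk gives enkephalins, which act on delta and mu receptors, and Pdyn gives dynorphins, which act on the kappa receptor. Pnoc, the precursor of nociceptin, and Pomc, the precursor of beta-endorphin, are not among the 6 genes and are given beside them.

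In mm10 coordinates (GENCODE M21), Oprm1 occupies bases 6758506 to 7038198 of chromosome 10 (plus strand) and Oprd1 bases 132110726 to 132144486 of chromosome 4 (minus strand). Oprk1 occupies bases 5588466 to 5606131 of chromosome 1 (plus strand) and Oprl1 bases 181715016 to 181720985 of chromosome 2 (plus strand). Penk is at 4133531 to 4138819 of chromosome 4 and Pdyn at 129686565 to 129699844 of chromosome 2, both on the minus strand. The annotation gives all 6 as protein-coding genes. All 4 receptor genes were lower after crush in all 3 strains. The promoters of 3 of them are shown, since no promoter window was available for Oprk1. Each line holds the 250 bases upstream of an annotated start, 5′ to 3′ on the gene's own strand, from RefSeq on GRCm38.p6 (the assembly called mm10), at chr10:6788320-6788569 for Oprm1, chr4:132144487-132144736 for Oprd1 and chr2:181714766-181715015 for Oprl1.
Oprm1: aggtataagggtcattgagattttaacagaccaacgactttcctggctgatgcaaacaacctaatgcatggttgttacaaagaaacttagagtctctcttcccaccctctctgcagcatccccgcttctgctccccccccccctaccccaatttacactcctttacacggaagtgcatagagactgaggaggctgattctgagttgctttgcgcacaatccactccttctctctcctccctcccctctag
Oprd1: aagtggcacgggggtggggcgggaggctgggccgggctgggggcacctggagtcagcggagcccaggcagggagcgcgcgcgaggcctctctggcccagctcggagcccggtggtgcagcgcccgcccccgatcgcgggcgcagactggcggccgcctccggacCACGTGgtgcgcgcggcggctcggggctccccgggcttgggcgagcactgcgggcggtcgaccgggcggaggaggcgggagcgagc
Oprl1: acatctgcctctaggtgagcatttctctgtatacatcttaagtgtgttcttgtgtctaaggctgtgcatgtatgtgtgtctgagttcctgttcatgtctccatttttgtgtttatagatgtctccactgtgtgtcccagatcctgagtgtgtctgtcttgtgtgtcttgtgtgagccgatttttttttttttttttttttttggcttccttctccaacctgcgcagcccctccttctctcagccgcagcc
The promoter tables held 9 such windows for 4 of the 6 genes, 3 of Oprm1, 1 of Oprd1, 3 of Oprl1 and 2 of Pdyn, and the Oprm1 and Oprl1 windows printed are each 1 of 3. They were searched on both strands for the AP-1 motif TGANTCA, the cyclic AMP response element TGACGTCA and the E-box CACGTG, none of which overlapped another. The E-box was found in the Oprd1 window, where it is in capitals, and 6.02% of all 32851 windows of this length held it. Neither of the other motifs was in any of the 9 windows, and these motifs were held by 6.75% (AP-1) and 1.55% (cyclic AMP response element) of all windows. The printed windows differed in base composition, with 80% G and C and 34 CpG pairs for Oprd1, 50% and 4 for Oprm1, and 44.4% and 3 for Oprl1.

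Levels are given as the FPKM that the authors deposited, with the standard deviation (SD) over the 4 libraries of a group. Its kilobase term was inferred from the values to be the whole gene, introns included, though no span was recovered for Oprm1 or Oprl1. Long genes then have low values, and levels of different genes are not compared. Differences are on a log2 scale of estimated counts per M reads (CPM, with M for mega) with 0.5 added, from a limma fit to all 24 libraries, with the standard error (SE) and a Benjamini-Hochberg adjusted p over 26234 genes. A gene was called higher or lower at an adjusted p under 0.05. The added 0.5 shrinks the difference of a gene with few reads, so folds are given as ratios of the mean FPKM values. Estimated depth was 51.4 to 145 M reads per library (median 107 M), and none stood apart in the share of reads in genes (62.9% to 64.8%). The 5 sensory neuron markers Isl1, Avil, Prph, Scn9a and Scn10a were detected in every group, and their summed level was 1525 to 1895 CPM in injured and 2507 to 2551 CPM in naive CAST ganglia. The 5 nerve injury genes Atf3, Sprr1a, Gal, Npy and Gap43 were all called higher after crush in each strain. In these whole-tissue samples, fewer cells of a type and less RNA per cell cannot be told apart.

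All 4 receptor genes were lower 5 days after crush in all 3 strains. Oprm1, the mu receptor gene, was 1.52- to 1.83-fold lower, depending on the strain, and the other 3 receptor genes were 2.29- to 5.81-fold lower. Injured and naive libraries did not overlap for any receptor gene in any strain. How many of all genes were as separate was not counted. Over all genes tested, 22.3% were called lower after crush in CAST, 24.6% in DBA and 21.2% in C57.

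For Oprm1, injured CAST ganglia had 0.00759, 0.00815, 0.00768 and 0.00800 FPKM, against 0.0136, 0.0125, 0.0107 and 0.0111 FPKM in naive CAST ganglia. Injured DBA ganglia had 0.00761, 0.00739, 0.00923 and 0.00863 FPKM, against 0.0152, 0.0158, 0.0143 and 0.0149 FPKM in naive DBA ganglia. Injured C57 ganglia had 0.0124, 0.0144, 0.0169 and 0.0163 FPKM, against 0.0215, 0.0262, 0.0295 and 0.0253 FPKM in naive C57 ganglia. Every injured library was below every naive library of its strain, and each naive C57 library stood above all naive libraries of the other strains. The mean was 1.52-fold lower after crush in CAST, 1.83-fold lower in DBA and 1.71-fold lower in C57. On the log2 scale the difference was −0.51 (SE 0.089, adjusted p = 3.98e-05) in CAST. It was −0.76 (SE 0.089, adjusted p = 1.15e-07) in DBA and −0.71 (SE 0.089, adjusted p = 5.51e-07) in C57. Ipcef1, a gene of the opposite strand, overlaps 152403 bases of Oprm1, and no source used here says whether counting used strand. Ipcef1 went the other way, being higher after crush by 0.34 on the log2 scale in CAST, 0.23 in DBA and 0.26 in C57 (adjusted p = 0.000388, 0.0121 and 0.00594). Its mean was 0.00942 FPKM in injured and 0.00680 FPKM in naive CAST ganglia, 0.00831 and 0.00668 FPKM in DBA and 0.00871 and 0.00674 FPKM in C57. Without strand, reads of Ipcef1 and of Oprm1 cannot be told apart where they overlap. The part of Ipcef1 reads in the Oprm1 values, folds and strain differences was not tested. Gm10945, which overlaps 3256 bases at the other end, was not called in any strain (adjusted p = 0.898 in CAST, 0.453 in DBA and 0.348 in C57).

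For Oprd1, the delta receptor gene, injured CAST ganglia had 0.207, 0.255, 0.203 and 0.203 FPKM, against 0.540, 0.612, 0.604 and 0.574 FPKM in naive CAST ganglia. Values were 0.132, 0.144, 0.111 and 0.134 FPKM in injured DBA ganglia, against 0.385, 0.403, 0.403 and 0.423 FPKM in naive DBA ganglia. They were 0.154, 0.190, 0.157 and 0.193 FPKM in injured C57 ganglia, against 0.353, 0.530, 0.467 and 0.405 FPKM in naive C57 ganglia. The groups were far apart in each strain, with the highest injured library of all 12 well below the lowest naive one. Oprd1 was 2.68-fold lower in CAST, 3.10-fold lower in DBA and 2.53-fold lower in C57. The log2 differences were −1.37 (SE 0.099, adjusted p = 2.97e-11) in CAST, −1.53 (SE 0.099, adjusted p = 3.25e-12) in DBA and −1.26 (SE 0.099, adjusted p = 2.32e-10) in C57. Its values fell on whole reads in all 24 libraries, 273 to 2363 reads each.

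For Oprk1, the kappa receptor gene, injured CAST ganglia had 0.00936, 0.00772, 0.00845 and 0.0136 FPKM, against 0.0304, 0.0346, 0.0327 and 0.0341 FPKM in naive CAST ganglia. Injured DBA libraries held 0.0139, 0.0149, 0.0129 and 0.0116 FPKM, against 0.0750, 0.0867, 0.0749 and 0.0733 FPKM in naive DBA libraries. Injured C57 libraries held 0.0170, 0.0215, 0.0239 and 0.0237 FPKM, against 0.0419, 0.0530, 0.0461 and 0.0568 FPKM in naive C57 libraries. DBA ganglia had the highest naive values of the 3 strains, whereas after crush DBA libraries were below all C57 libraries and overlapped those of CAST. The mean was 3.37-fold lower after crush in CAST, 5.81-fold lower in DBA and 2.29-fold lower in C57. The log2 differences were −0.69 (SE 0.068, adjusted p = 7.34e-09) in CAST, −1.34 (SE 0.068, adjusted p = 3.9e-14) in DBA and −0.64 (SE 0.068, adjusted p = 4.11e-08) in C57. They are smaller than the logarithms of the folds, since Oprk1 had few reads, 26 to 246 per library by the steps of its FPKM values. With 0.1 CPM added in place of 0.5 they were −1.34, −2.13 and −1.02 in CAST, DBA and C57, and with voom weights −1.74, −2.52 and −1.21.

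For Oprl1, the nociceptin receptor gene, injured CAST ganglia had 0.152, 0.148, 0.147 and 0.170 FPKM, against 0.431, 0.435, 0.458 and 0.450 FPKM in naive CAST ganglia. Injured DBA ganglia held 0.180, 0.228, 0.190 and 0.217 FPKM, against 0.678, 0.579, 0.587 and 0.643 FPKM in naive DBA ganglia. Injured C57 ganglia held 0.136, 0.149, 0.149 and 0.148 FPKM, against 0.328, 0.368, 0.309 and 0.341 FPKM in naive C57 ganglia. The naive strains were separate from one another, DBA above CAST and CAST above C57, while injured CAST and C57 libraries overlapped. Oprl1 was 2.88-fold lower after crush in CAST, 3.05-fold lower in DBA and 2.31-fold lower in C57. The log2 differences were −1.15 (SE 0.063, adjusted p = 2.04e-13) in CAST, −1.30 (SE 0.063, adjusted p = 1.78e-14) in DBA and −0.87 (SE 0.063, adjusted p = 5.27e-11) in C57.

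**Figure D1:**
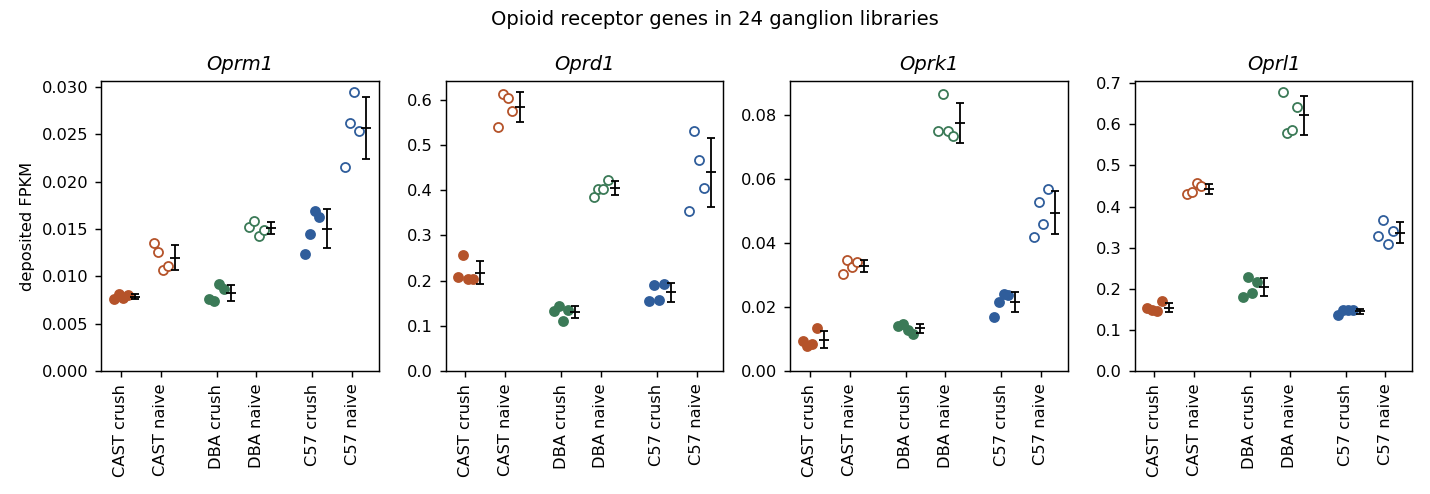
Deposited FPKM (vertical axis, linear, from 0) of the 4 opioid receptor genes in each of 24 libraries, by strain, with injured ganglia (crush, filled points) left of naive ganglia (open points); black marks are the mean ± SD of 4 libraries. In every panel and strain the 4 injured libraries lie below the 4 naive ones.

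No precursor gene was called in the same direction in all 3 strains. Penk, the enkephalin precursor, fell in CAST and rose in C57, and Pdyn, the dynorphin precursor, was near the limit of detection in all groups. The 4 receptor genes and Penk were the genes called lower in CAST, the 4 receptor genes and Pdyn in DBA, and the 4 receptor genes alone in C57, where Penk was called higher.

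Penk stood at 2.88, 2.37, 1.77 and 2.42 FPKM in injured CAST ganglia, against 4.32, 4.26, 3.95 and 3.70 FPKM in naive CAST ganglia. In injured DBA ganglia it stood at 1.78, 2.01, 2.43 and 1.98 FPKM, against 1.72, 1.85, 1.92 and 1.76 FPKM in naive DBA ganglia. In injured C57 ganglia it stood at 2.03, 1.92, 1.66 and 1.72 FPKM, against 1.32, 0.961, 1.67 and 1.23 FPKM in naive C57 ganglia. Naive CAST libraries were the highest of all 24 and lay above every injured CAST library. In DBA the groups overlapped, and in C57 they overlapped by 1 library each, the highest naive library being just above the lowest injured one. After crush, the libraries of the 3 strains overlapped one another. Penk was 1.72-fold lower after crush in CAST, with a log2 difference of −0.77 (SE 0.13, adjusted p = 2.04e-05). It was 1.41-fold higher in C57, with a log2 difference of 0.49 (SE 0.13, adjusted p = 0.00333). In DBA the ratio of injured to naive was 1.13, and the log2 difference of 0.16 (SE 0.13, adjusted p = 0.311) was not called, with a 95% interval of −0.10 to 0.43.

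A non-coding gene of the opposite strand, A830012C17Rik, overlaps 499 bases of Penk. At much lower values it differed in the same directions as Penk in CAST and C57: it had 0.0400 ± 0.00577 FPKM in injured and 0.0585 ± 0.00887 FPKM in naive CAST ganglia (SD, n = 4 each). Its log2 difference was −0.45 in CAST (adjusted p = 0.0167), 0.26 in DBA (adjusted p = 0.158) and 0.34 in C57 (adjusted p = 0.0806). Without strand, reads of this gene and of Penk cannot be told apart where they overlap. Penk is also made outside neurons, in fibroblasts among others. The 4 fibroblast markers Col1a1, Dcn, Pdgfra and Lum were all called higher after crush in every strain. Their summed level was 399 to 436.9 CPM in injured and 166.8 to 239.6 CPM in naive CAST ganglia. It was 497.3 to 561.3 CPM in injured and 198.2 to 310.7 CPM in naive DBA ganglia, and 278.5 to 365.2 CPM in injured and 152.3 to 263.2 CPM in naive C57 ganglia. Penk was called lower where these markers were called higher in CAST, and was called higher together with them in C57. The 6 markers of spinal cord neurons and central glia, tissue that also holds Penk, summed to 6.195 to 10.57 CPM in injured and 5.765 to 15.01 CPM in naive CAST ganglia, to 5.227 to 6.464 CPM in injured and 10.15 to 12.04 CPM in naive DBA ganglia, and to 7.388 to 10.56 CPM in injured and 12.03 to 14.39 CPM in naive C57 ganglia. None of the 6 was at 0 in all libraries of a group, and Olig2 averaged below 0.1 CPM in every group. Slc32a1 and Slc6a5 also averaged below 0.1 CPM in both C57 groups and in injured DBA ganglia. In naive DBA ganglia Slc6a5 did so as well, and in the CAST groups neither did. The part of fibroblasts and of such tissue in the Penk result was not tested.

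Pdyn stood at 0.00922, 0.0154, 0.00828 and 0.00571 FPKM in injured CAST ganglia, against 0.00988, 0.0194, 0.00630 and 0.00603 FPKM in naive CAST ganglia. In injured DBA ganglia it stood at 0, 0.00385, 0.0141 and 0.00651 FPKM, against 0.0108, 0.0138, 0.0125 and 0.0163 FPKM in naive DBA ganglia. In injured C57 ganglia it stood at 0.00553, 0.00508, 0.00385 and 0.00603 FPKM, against 0.00371, 0.00733, 0.00929 and 0.00588 FPKM in naive C57 ganglia. Injured and naive libraries overlapped in all 3 strains, and the steps of the values give 0 to 56 reads per library. The log2 differences were −0.018 (SE 0.084, adjusted p = 0.89) in CAST and −0.046 (SE 0.084, adjusted p = 0.708) in C57, neither of them called. At this depth the added 0.5 CPM exceeds the level of Pdyn and shrinks both the difference and its error. With 0.1 CPM added the SE was 0.25, and with voom weights it was 0.50 in CAST and 0.63 in C57. Changes larger than these log2 differences could therefore have been missed in CAST and C57. In DBA it was −0.23 (SE 0.084, adjusted p = 0.0255). The DBA call was lost in 4 of the 8 fits that left out 1 DBA library, injured replicates 1 and 2 (−0.16 and −0.21) and naive replicates 2 and 4 (−0.22 and −0.20), with adjusted p up to 0.126. Its size also followed the processing, at −0.71 with 0.1 CPM added and −1.91 with voom weights.

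Of the other 2 precursors, Pnoc was called higher after crush in DBA and Pomc in CAST and DBA. Pnoc, the precursor of the ligand of Oprl1, stood at 0.0860, 0.0879, 0.0910 and 0.114 FPKM in injured DBA ganglia, against 0.0128, 0.0114, 0.00660 and 0.0106 FPKM in naive DBA ganglia. That is 9.12-fold higher, with a log2 difference of 1.91 (SE 0.092, adjusted p = 1.6e-14). Injured and naive libraries overlapped in CAST, at 0.00674 to 0.00844 FPKM in injured and 0.00423 to 0.00917 FPKM in naive ganglia, and in C57, at 0.0143 to 0.0228 FPKM in injured and 0.0109 to 0.0199 FPKM in naive ganglia, and neither difference was called (adjusted p = 0.469 and 0.22). Its response differed between strains, by −1.82 (SE 0.13, adjusted p = 4.36e-10) for CAST minus DBA and 1.76 (SE 0.13, adjusted p = 2.84e-09) for DBA minus C57, but by −0.060 (SE 0.13, adjusted p = 0.851) for CAST minus C57, which was not called. Mean Pnoc levels in the CAST and C57 groups, 0.15 to 0.44 CPM, are below the added 0.5 CPM, which shrinks differences and their errors. The missing calls do not show that Pnoc was unchanged or responded alike in these strains. Pnoc and Pomc were not followed under other settings. Pomc stood at 0.422, 0.411, 0.325 and 0.350 FPKM in injured DBA ganglia, against 0.0662, 0.0851, 0.0887 and 0.116 FPKM in naive DBA ganglia. In CAST it stood at 0.174, 0.246, 0.206 and 0.135 FPKM in injured ganglia, against 0.0695, 0.102, 0.0808 and 0.0909 FPKM in naive ones. Injured libraries were above all naive libraries in both strains, 4.24-fold in DBA (log2 difference 1.40, adjusted p = 4.41e-10) and 2.22-fold in CAST (log2 difference 0.67, adjusted p = 4.65e-05). In C57 the groups overlapped, with 0.137 ± 0.0299 FPKM in injured and 0.0978 ± 0.0220 FPKM in naive ganglia (SD, n = 4 each), and the difference was not called (log2 difference 0.27, adjusted p = 0.071). The Pomc response of DBA differed from the others, by −0.73 (SE 0.17, adjusted p = 0.00347) for CAST minus DBA and 1.12 (SE 0.17, adjusted p = 7.74e-05) for DBA minus C57, while those of CAST and C57 were not called different (0.39, SE 0.17, adjusted p = 0.144).

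**Figure D2:**
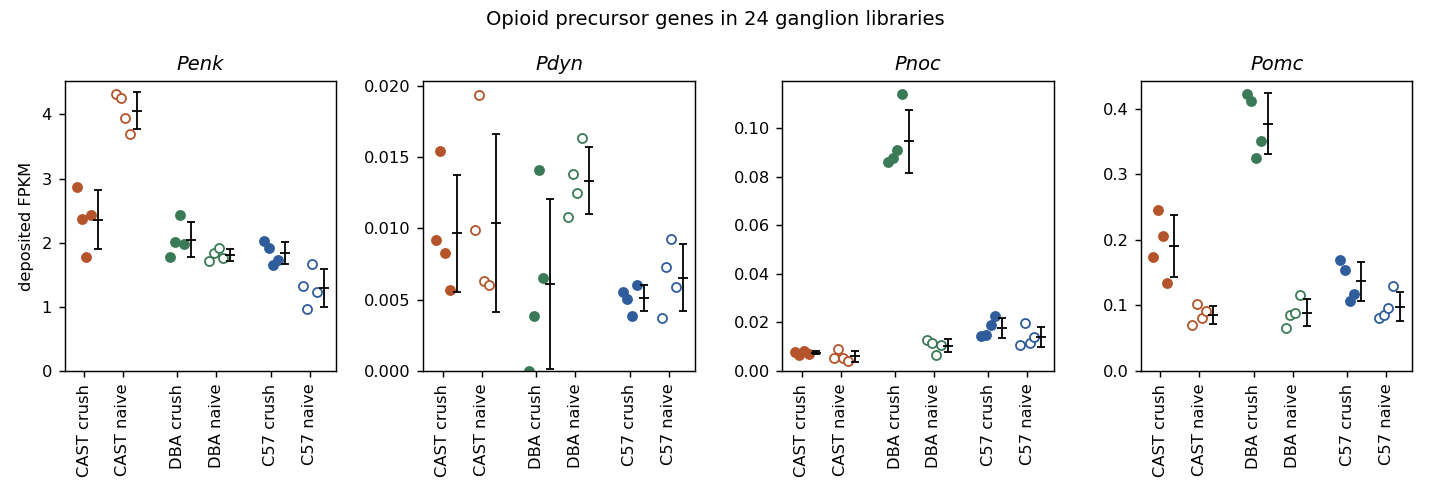
Deposited FPKM (vertical axis, linear, from 0) of the opioid precursor genes Penk, Pdyn, Pnoc and Pomc in each of 24 libraries, by strain, with injured ganglia (crush, filled points) left of naive ganglia (open points); black marks are the mean ± SD of 4 libraries. Penk is highest in naive CAST ganglia, and Pnoc is high in injured DBA ganglia alone among the 6 groups.

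Among the 6 genes, 5 were called lower and 0 higher after crush in CAST, where 22.3% of all genes tested were called lower and 26.7% higher. In DBA, 5 were called lower and 0 higher, against 24.6% and 27.4% of all genes. In C57, 4 were called lower and 1 higher, against 21.2% and 19.5% of all genes. The median log2 difference of the 6 genes was −0.73 in CAST, −1.03 in DBA and −0.67 in C57, beside 0.016, 0.013 and −0.0017 over all genes tested. Genes of sensory neurons fell in the same comparisons. Of the 5 sensory neuron markers, 4 were called lower in CAST, 4 in DBA and 3 in C57, with summed levels in DBA of 1374 to 1534 CPM in injured and 2110 to 2232 CPM in naive ganglia, and in C57 of 1614 to 2006 CPM in injured and 2248 to 2537 CPM in naive ganglia. Of 3 markers of peptidergic nociceptors (Calca, Tac1 and Trpv1), 3 were called lower in CAST, 3 in DBA and 2 in C57, with summed levels of 395.7 to 435.5 CPM in injured and 631 to 776.5 CPM in naive CAST ganglia, 348.6 to 390.9 CPM in injured and 684.7 to 757.6 CPM in naive DBA ganglia, and 466.1 to 566.4 CPM in injured and 815 to 969.6 CPM in naive C57 ganglia. Of 4 markers of non-peptidergic nociceptors (Mrgprd, P2rx3, Gfra2 and Lpar3), 3 were called lower in each strain and 1 was called higher in CAST and in C57, with summed levels of 154.7 to 236.1 CPM in injured and 433.2 to 489.1 CPM in naive CAST ganglia, 189.9 to 223.5 CPM in injured and 455.6 to 479.2 CPM in naive DBA ganglia, and 255.3 to 314.7 CPM in injured and 448.8 to 467.6 CPM in naive C57 ganglia. Of 3 markers of large myelinated neurons (Nefh and Pvalb among them), 3 were called lower in CAST, 2 in DBA and 3 in C57, with summed levels of 1266 to 1426 CPM in injured and 2486 to 2640 CPM in naive CAST ganglia, 1701 to 1979 CPM in injured and 2766 to 3155 CPM in naive DBA ganglia, and 1408 to 1670 CPM in injured and 2235 to 2746 CPM in naive C57 ganglia. Of 6 pan-neuronal genes, 3 were called higher and 2 lower in each strain, with summed levels of 7104 to 7758 CPM in injured and 4434 to 4713 CPM in naive CAST ganglia, 7943 to 8475 CPM in injured and 4561 to 5178 CPM in naive DBA ganglia, and 7099 to 8083 CPM in injured and 4616 to 5795 CPM in naive C57 ganglia. The 5 macrophage markers were all called higher in each strain, with summed levels of 96.82 to 124.9 CPM in injured and 13.67 to 16.37 CPM in naive CAST ganglia, 95.36 to 107.1 CPM in injured and 17.65 to 22.84 CPM in naive DBA ganglia, and 76.58 to 87.08 CPM in injured and 15.66 to 19.41 CPM in naive C57 ganglia. No marker of these lists was at 0 in all libraries of a group, and the part of a changed cell mix in the receptor results was not tested.

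**Figure D3:**
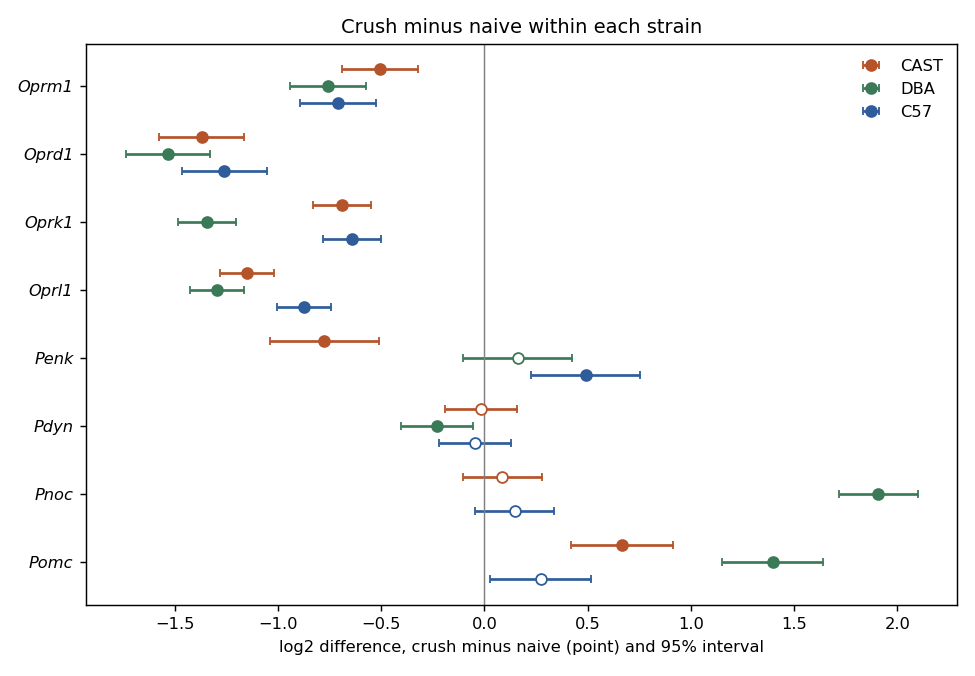
Log2 differences, injured minus naive, of the 6 opioid genes and of Pnoc and Pomc within CAST, DBA and C57 (points, log2 scale of estimated CPM + 0.5) with 95% intervals from the limma fit to 24 libraries; filled points have an adjusted p under 0.05. All receptor points lie left of 0, the Penk points lie on both sides, and the Pnoc and Pomc points of DBA lie farthest to the right.

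The size of the crush response was compared between strains by the interaction of strain and crush. For Penk, the response of CAST minus that of DBA was −0.94 (SE 0.18, adjusted p = 0.000707), and the response of CAST minus that of C57 was −1.27 (SE 0.18, adjusted p = 2.67e-05). The DBA and C57 responses of Penk were not called different (−0.33, SE 0.18, adjusted p = 0.325). For Oprk1, the fall in DBA exceeded that in the other strains: the interaction was 0.66 (SE 0.096, adjusted p = 2.6e-05) for CAST minus DBA and −0.71 (SE 0.096, adjusted p = 2.52e-05) for DBA minus C57, while CAST minus C57 was −0.049 (SE 0.096, adjusted p = 0.833) and was not called. With 0.1 CPM added, the DBA minus C57 value was −1.11 and with voom weights −1.31, both called. The CAST minus C57 value followed the scale as well, at −0.32 (SE 0.17, adjusted p = 0.28) with 0.1 CPM added and −0.53 (SE 0.23, adjusted p = 0.173) with voom weights, neither called, so it does not show that Oprk1 fell alike in these strains. For Oprl1, the fall was larger in DBA than in C57 (−0.42, SE 0.089, adjusted p = 0.0027), a call that voom weights did not keep (adjusted p = 0.0561). The Oprl1 difference of CAST minus C57, −0.28 (SE 0.089, adjusted p = 0.043), was lost in 13 of 16 fits that left out 1 library, at −0.24 with an adjusted p of 0.0913 without naive C57 replicate 3. It kept its call without injured CAST replicate 4 (−0.31), injured C57 replicate 1 (−0.30) or naive C57 replicate 2 (−0.31). CAST minus DBA was not called for Oprl1 (0.15, SE 0.089, adjusted p = 0.323).

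Oprm1 and Oprd1 had no called interaction. For Oprm1 the 95% intervals of the interaction were −0.060 to 0.46 for CAST minus C57, −0.012 to 0.51 for CAST minus DBA and −0.31 to 0.21 for DBA minus C57. For Oprd1 they were −0.40 to 0.18, −0.13 to 0.45 and −0.56 to 0.016 in the same order. Pdyn had no called interaction either (adjusted p = 0.929, 0.283 and 0.431 in that order). In all, 2 of the 6 genes were called for CAST minus C57, 2 for CAST minus DBA and 2 for DBA minus C57, where 12.3%, 14.4% and 9.16% of all genes were called. These comparisons share groups with one another and with the crush comparisons.

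Naive ganglia of the 3 strains differed in most of these genes. Enkephalin precursor RNA was highest in CAST and mu receptor RNA was highest in C57. Reads of all strains were aligned to mm10, the C57BL/6J reference, so a difference between strains and a difference in mapping cannot be told apart in what follows.

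Penk averaged 4.06 ± 0.292 FPKM in naive CAST, 1.81 ± 0.0899 FPKM in naive DBA and 1.30 ± 0.291 FPKM in naive C57 ganglia (SD, n = 4 each). The CAST mean was 3.13-fold that of C57 and 2.24-fold that of DBA, with log2 differences of 1.60 (SE 0.13, adjusted p = 3.5e-10) and 1.12 (SE 0.13, adjusted p = 1.27e-07). The DBA mean was 1.40-fold that of C57, a log2 difference of 0.48 (SE 0.13, adjusted p = 0.00759). The 4 fibroblast markers summed to overlapping ranges in the naive strains, 166.8 to 239.6 CPM in CAST, 198.2 to 310.7 CPM in DBA and 152.3 to 263.2 CPM in C57. Oprm1 averaged 0.0120 ± 0.00132 FPKM in naive CAST, 0.0151 ± 0.000651 FPKM in naive DBA and 0.0256 ± 0.00329 FPKM in naive C57 ganglia (SD, n = 4 each). It was 2.14-fold lower in CAST than in C57, 1.26-fold lower in CAST than in DBA and 1.70-fold lower in DBA than in C57, with log2 differences of −0.99 (SE 0.089, adjusted p = 1.79e-09), −0.30 (SE 0.089, adjusted p = 0.00805) and −0.69 (SE 0.089, adjusted p = 1.62e-06). For Oprm1, and for Penk, no naive library of a strain overlapped those of another, and the order of strains was CAST, DBA, C57 upwards for the receptor and C57, DBA, CAST upwards for the precursor.

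Naive Oprd1 averaged 0.583 ± 0.0329 FPKM in CAST, 0.404 ± 0.0154 FPKM in DBA and 0.439 ± 0.0763 FPKM in C57 ganglia (SD, n = 4 each). CAST was above both other strains, with log2 differences of 0.51 (SE 0.099, adjusted p = 0.00014) against DBA and 0.41 (SE 0.099, adjusted p = 0.00137) against C57, while DBA and C57 overlapped and their difference was not called (−0.10, SE 0.099, adjusted p = 0.539). Naive Oprk1 averaged 0.0329 ± 0.00186 FPKM in CAST, 0.0775 ± 0.00618 FPKM in DBA and 0.0494 ± 0.00670 FPKM in C57 ganglia (SD, n = 4 each). It was 2.35-fold lower in CAST than in DBA, a log2 difference of −0.79 (SE 0.068, adjusted p = 9.9e-10), and also lower in CAST than in C57, with −0.34 (SE 0.068, adjusted p = 0.000213). DBA was above C57 for this gene, with a log2 difference of 0.45 (SE 0.068, adjusted p = 1.91e-05). With voom weights the first 2 of these Oprk1 differences were −1.23 and −0.58. Naive Oprl1 averaged 0.443 ± 0.0128 FPKM in CAST, 0.622 ± 0.0470 FPKM in DBA and 0.336 ± 0.0250 FPKM in C57 ganglia (SD, n = 4 each). The DBA mean was 1.85-fold that of C57, a log2 difference of 0.75 (SE 0.063, adjusted p = 1.61e-09). For CAST minus DBA the log2 difference was −0.42 (SE 0.063, adjusted p = 5.96e-06), and for CAST minus C57 it was 0.33 (SE 0.063, adjusted p = 0.00013). Pdyn was not called in any naive comparison (adjusted p = 0.292, 0.388 and 0.0833 for CAST minus C57, CAST minus DBA and DBA minus C57). Its naive DBA libraries still lay above all naive C57 libraries, with a mean 2.04-fold that of C57. The added 0.5 CPM exceeds the level of Pdyn and shrinks this to a log2 difference of 0.21. With 0.1 CPM added it was 0.58 (adjusted p = 0.0982) and with voom weights 1.06 (adjusted p = 0.179). The missing call does not show that these strains were alike. On the main scale, 5 of the 6 genes were called for CAST minus C57, 5 for CAST minus DBA and 4 for DBA minus C57, where 46.2%, 46.4% and 22.9% of all genes were called.

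**Figure D4:**
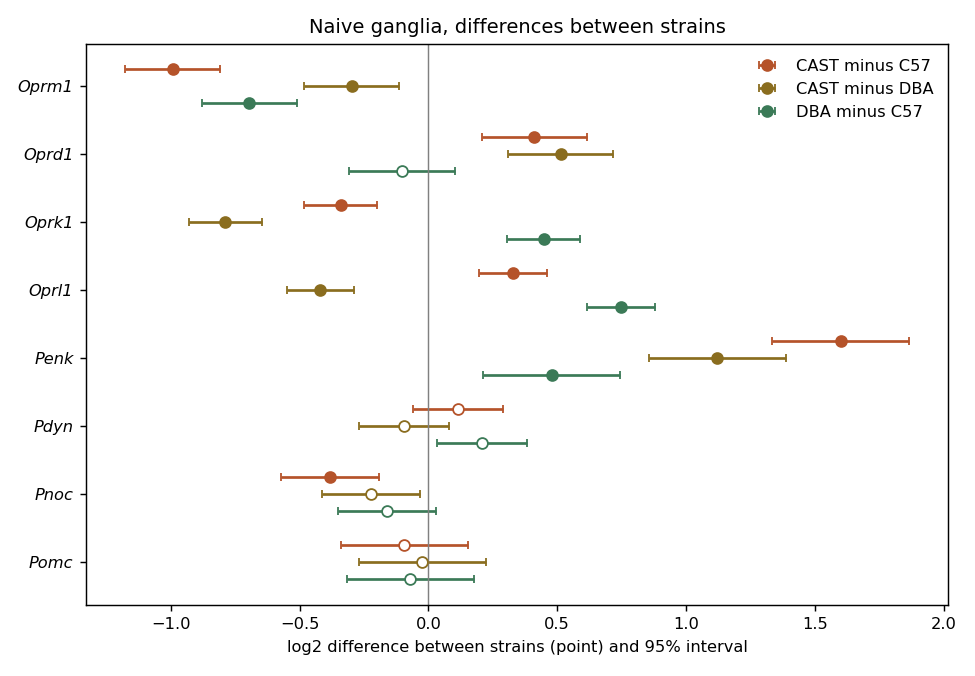
Log2 differences between naive ganglia of the strains, CAST minus C57, CAST minus DBA and DBA minus C57, for the 6 opioid genes and for Pnoc and Pomc (points, log2 scale of estimated CPM + 0.5) with 95% intervals from the limma fit; filled points have an adjusted p under 0.05. Penk lies to the right of 0 and Oprm1 to the left in all 3 comparisons, while the other receptor genes have no common direction.

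After crush the libraries of the 3 strains overlapped in Penk, and Oprm1 was highest in C57. Injured CAST ganglia had 2.36 ± 0.453 FPKM of Penk, injured DBA ganglia 2.05 ± 0.271 FPKM and injured C57 ganglia 1.83 ± 0.172 FPKM (SD, n = 4 each). CAST minus C57 was 0.33 (SE 0.13, adjusted p = 0.0334), a call that was lost with upper-quartile and median-of-ratios scaling (0.28 with either) and in 5 of 8 fits that left out 1 library. Those were injured CAST replicates 1, 2 and 4 (0.24, 0.33 and 0.32) and injured C57 replicates 3 and 4 (0.29 and 0.31), with adjusted p up to 0.141. CAST minus DBA and DBA minus C57 were not called for Penk (0.18, SE 0.13, adjusted p = 0.247, and 0.15, SE 0.13, adjusted p = 0.409). Without injured CAST replicate 3, CAST minus DBA was called for Penk (0.31, adjusted p = 0.0374). Oprm1 was 1.91-fold lower in injured CAST and 1.83-fold lower in injured DBA than in injured C57 ganglia, with log2 differences of −0.79 (SE 0.089, adjusted p = 6.67e-08) and −0.74 (SE 0.089, adjusted p = 3.88e-07). Injured CAST and DBA libraries overlapped for Oprm1 (−0.049, SE 0.089, adjusted p = 0.682). Oprd1 was highest in injured CAST ganglia and lowest in injured DBA ganglia, with no overlap between neighbours. The Oprd1 differences were 0.68 (SE 0.099, adjusted p = 3.65e-06) for CAST minus DBA, 0.30 (SE 0.099, adjusted p = 0.014) for CAST minus C57 and −0.38 (SE 0.099, adjusted p = 0.00436) for DBA minus C57. The CAST minus C57 call for Oprd1 was lost without injured C57 replicate 1 (0.25, adjusted p = 0.0552) and without injured CAST replicate 2 (0.22, adjusted p = 0.0709).

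Oprk1 was 2.20-fold lower in injured CAST and 1.62-fold lower in injured DBA than in injured C57 ganglia, with log2 differences of −0.39 (SE 0.068, adjusted p = 3.9e-05) and −0.26 (SE 0.068, adjusted p = 0.00444). With 0.1 CPM added these were −0.82 and −0.51, and with voom weights −1.11 and −0.66. CAST minus DBA was −0.13 (SE 0.068, adjusted p = 0.118), which was not called here but was with 0.1 CPM added (−0.31, adjusted p = 0.036) and without injured CAST replicate 4 (−0.18, adjusted p = 0.0435). Oprl1 was highest in injured DBA ganglia, where the mean was 1.40-fold that of C57, with log2 differences of 0.32 (SE 0.063, adjusted p = 0.000246) for DBA minus C57, −0.27 (SE 0.063, adjusted p = 0.000895) for CAST minus DBA and 0.052 (SE 0.063, adjusted p = 0.517) for CAST minus C57, which was not called. With voom weights the DBA minus C57 value was 0.48. Pdyn was not called in the injured comparisons (adjusted p = 0.17, 0.26 and 0.87 for CAST minus C57, CAST minus DBA and DBA minus C57). That makes 4 of the 6 genes called for CAST minus C57, 2 for CAST minus DBA and 4 for DBA minus C57, against 50.6%, 49.7% and 34.2% of all genes.

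Genes that act before and after the receptors were taken from lists of the pathway, and rose or fell here means called higher or lower. Of all genes tested, 26.7% rose and 22.3% fell in CAST, 27.4% and 24.6% in DBA and 19.5% and 21.2% in C57. Among 8 genes of peptide processing, 5 fell and 0 rose in CAST, 4 fell and 3 rose in DBA and 3 fell and 2 rose in C57, with median log2 differences of −0.21, −0.075 and −0.081. The 3 that fell in every strain were Scg5, Pcsk2 and Cpe. Pcsk2 is a convertase that cuts peptide precursors, Scg5 is its chaperone, and Cpe, carboxypeptidase E, trims the cut peptides. Scg5 was 1.91-fold, 1.58-fold and 1.33-fold lower after crush in CAST, DBA and C57 (adjusted p = 1.73e-11, 7.04e-09 and 2.11e-05). Pcsk2 was 1.52-fold, 1.45-fold and 1.23-fold lower in CAST, DBA and C57, and Cpe 1.31-fold, 1.43-fold and 1.27-fold lower. Among 7 genes of peptide-degrading enzymes, 2 rose and 2 fell in CAST, 3 and 3 in DBA and 1 and 2 in C57 (medians 0.098, 0.11 and 0.078). In CAST and C57 these counts are near the shares of all genes. Of these, Ece2, an endothelin-converting enzyme, fell in every strain, 1.35-fold, 1.33-fold and 1.22-fold in the same order.

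Downstream of the receptors, subunits of inhibitory G proteins moved both ways. Of 9 genes, 4 rose and 4 fell in CAST, 4 and 3 in DBA and 5 and 2 in C57 (medians −0.087, 0.12 and 0.19). The alpha subunit genes Gnao1 and Gnai1 fell in every strain and Gnai3 rose. Gnao1 was 1.72-fold, 1.77-fold and 1.44-fold lower after crush in CAST, DBA and C57, and Gnai1 1.54-fold, 1.53-fold and 1.41-fold lower. Gnai3 was 1.31-fold, 1.34-fold and 1.26-fold higher in the same order. Of 11 effector genes, which encode inwardly rectifying potassium channels, calcium channels and adenylyl cyclases, 2 rose and 6 fell in CAST, 3 and 6 in DBA and 3 and 4 in C57 (medians −0.16, −0.17 and −0.10). Kcnj3 and Kcnj9 encode potassium channels opened by G proteins. Kcnj3 was 1.67-fold, 2.23-fold and 1.63-fold lower, and Kcnj9 1.75-fold, 1.29-fold and 1.91-fold lower, in CAST, DBA and C57. The cyclase gene Adcy1 was 1.92-fold, 1.75-fold and 1.49-fold lower.

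Among 13 regulators of the receptors, 6 rose and 5 fell in CAST, 6 and 6 in DBA and 5 and 5 in C57 (medians 0.13, 0.22 and −0.040). Rgs20, which speeds the shut-off of inhibitory G proteins, was 4.28-fold, 5.66-fold and 4.14-fold higher after crush in CAST, DBA and C57 (adjusted p = 5.11e-14, 1.5e-15 and 6.84e-14). Arrb1, beta-arrestin 1, which binds phosphorylated receptors and uncouples them, was 2.34-fold, 2.12-fold and 1.69-fold higher. Adrbk2, a kinase that phosphorylates receptors and is also called Grk3, was 2.12-fold, 2.09-fold and 1.55-fold lower. The shares of all genes called in these crush comparisons, given above for the opioid genes, are the background of the pathway counts as well.

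Ranked by mean over the 6 groups, Oprm1 was highest in naive C57 ganglia, apart from all others, followed by naive DBA, injured C57 and naive CAST ganglia, whose neighbours overlapped, and then by injured DBA and injured CAST ganglia, which overlapped each other. Oprd1 ran from naive CAST, naive C57 and naive DBA to injured CAST, injured C57 and injured DBA ganglia, and only naive C57 and naive DBA overlapped among neighbours. The Oprk1 order was naive DBA, naive C57, naive CAST, injured C57, injured DBA and injured CAST, with overlap of the last pair alone. The Oprl1 order was naive DBA, naive CAST, naive C57, injured DBA, injured CAST and injured C57, again with overlap of the last pair alone. For Penk, naive CAST ganglia stood apart at the top and naive C57 ganglia apart from naive DBA ganglia at the bottom, while injured CAST, injured DBA, injured C57 and naive DBA ganglia overlapped in turn. For Pdyn every neighbouring pair of groups overlapped.

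Across the 24 libraries, the genes whose pattern was most like each of the 6 were sought among 13958 protein-coding genes with a mean of at least 1 CPM, by Pearson correlation of the log2 values. The libraries share their 6 groups, so these correlations describe group differences and have no test. Oprm1 was most like D3Ertd751e (0.983), Arfip1 (0.966) and D630037F22Rik (0.958). Oprd1 was most like AI646023 (0.983), Lhfpl4 (0.981) and Galnt5 (0.981). Oprk1 was most like Pou4f3 (0.972), Rimkla (0.971) and Zmynd12 (0.970), and Oprl1 most like Comp (0.987), Rem2 (0.984) and Gnai1 (0.976), the last of which is also in the G protein list. Penk was most like Izumo1 (0.914), Nxpe5 (0.886) and Bglap2 (0.881). No gene came close to Pdyn, whose best 3 were Ahi1 (0.712), Acox3 (0.678) and Atp10a (0.669).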

How the data were processed

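The authors deposited FPKM values, 1 per gene and library; STAR 2.3.0 and the mm10 build are named in the submitters' processing notes. No source used here names the counting tool, the annotation or the use of strand. Multiplied by the M21 span of the gene, 67.8% of values worth 0.5 to 100 reads were whole within 0.05 (10% by chance), which gave library totals and estimated reads. A total of 36345 of 38215 IDs (95.1%) had a span. For Oprk1, Penk and Pdyn the steps gave longer spans (26829, 9655 and 25277 bases), and for Oprm1 and Oprl1 none; a constant factor cancels between libraries apart from the pseudocount.

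A gene was tested if 4 or more libraries held 10 or more of its estimated reads (26234 genes, all 6 opioid genes among them). limma 3.58.1 (trend, robust) in R 4.3.3 fitted 6 group means to log2(estimated CPM + 0.5), and p-values were two-sided and adjusted over all genes within each of 12 contrasts. The pathway genes named are, per list, up to 3 called in 1 direction in all 3 strains with the largest mean difference. The replicate numbers were not used as pairs in the main fit. The weak correlations of same-numbered samples, given below, do not settle whether those samples belonged together. The opioid genes, lists and tests were chosen with earlier results of these data known. A marker gene of the sensory neuron and peptidergic nociceptor lists is not reported here.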

Additional observations from a re-analysis of the deposited data

Results flagged for a closer look

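Of 36 sets of 4 libraries (6 genes in 6 groups), 3 had a library far from the other 3 by Dixon's ratio, the gap to the nearest library divided by the range; chance flags about 1 in 20. For Oprd1, injured CAST replicate 2 had 0.255 FPKM, against 0.203 to 0.207 FPKM in the others (ratio 0.917). For Oprk1, naive DBA replicate 2 had 0.0867 FPKM, against 0.0733 to 0.0750 FPKM (ratio 0.872). For Oprl1, injured C57 replicate 1 had 0.136 FPKM, against 0.148 to 0.149 FPKM (ratio 0.938). These libraries were kept.

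The crush response was called different between strains, by the interaction of strain and crush in limma, in 6 instances. Of all genes tested, 12.3% were called for CAST minus C57, 14.4% for CAST minus DBA and 9.16% for DBA minus C57. For Penk the log2 difference of responses was −1.27 for CAST minus C57 and −0.94 (−0.937) for CAST minus DBA. For Oprk1 it was 0.66 (0.657) for CAST minus DBA and −0.71 (−0.705) for DBA minus C57. For Oprl1 it was −0.42 (−0.424) for DBA minus C57 and −0.28 (−0.277) for CAST minus C57. The DBA minus C57 call of Oprl1 was lost with voom weights (adjusted p = 0.0561). Its CAST minus C57 call was lost in 13 of 16 fits that left out 1 library.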

How the results depend on the processing

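The crush calls of all 4 receptor genes in all 3 strains, and those of Penk in CAST and C57, kept their direction and call under every alternative run that gives a value. No value was had for Oprk1 or Pdyn with a mean of at least 1 CPM. Spans recovered from the steps, an alternative chosen after seeing the data, changed no call. With log2(FPKM + 1), whose added 1 is larger than most values of these genes, the Oprk1 interaction of CAST minus C57 was 0.0061, the Oprd1 interaction of CAST minus DBA −0.066 and the Oprm1 interaction of DBA minus C57 0.0052, all reversed and uncalled; that Oprk1 value was −0.32 with 0.1 CPM added and −0.53 with voom. The same scale called the Oprm1 interaction of CAST minus C57 (0.0091) and the Oprl1 interaction of CAST minus DBA (0.11). It lost Oprm1 for naive CAST minus DBA (−0.0044) and, in injured ganglia, Oprd1 for CAST minus C57 (0.052) and DBA minus C57 (−0.054). The Oprl1 interaction of CAST minus C57 was lost with 0.1 CPM added (−0.31), voom (−0.31), the replicate block (−0.28) and without 3 libraries doubted in an earlier analysis, replicate 3 of injured C57, replicate 1 of naive C57 and replicate 3 of naive DBA (−0.26); that of DBA minus C57 was lost with voom (−0.40). Without those 3 libraries the Oprk1 interaction of CAST minus C57 (0.022) and the Oprm1 interaction of DBA minus C57 (0.059) changed sign. Penk in injured CAST minus C57 was lost with upper-quartile (0.28) and median-of-ratios scaling (0.28) and without the 3 libraries (0.29). Adding 0.1 CPM called Oprk1 for injured CAST minus DBA (−0.31), and fitting the contrast's groups alone called Pdyn for naive DBA minus C57 (0.21). With voom, Pdyn in injured DBA minus C57 was −0.61.

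Leaving out 1 library at a time gave −0.31 to −0.24 for the Oprl1 interaction of CAST minus C57, −0.13 to 0.027 for the Oprm1 interaction of DBA minus C57 and −0.028 to 0.11 for the Pdyn interaction of CAST minus C57. Pdyn ranged over −0.074 to 0.067 for the CAST crush response, −0.31 to −0.16 for that of DBA, 0.049 to 0.20 for injured CAST minus DBA and −0.060 to 0.093 for injured DBA minus C57. In injured ganglia the ranges were 0.22 to 0.35 for Oprd1 in CAST minus C57, −0.18 to −0.10 for Oprk1 in CAST minus DBA, 0.24 to 0.46 for Penk in CAST minus C57 and 0.087 to 0.31 for Penk in CAST minus DBA. The causes were not tested. Same-numbered injured and naive samples did not deviate together (correlations of −0.192 to 0.133 over 12 pairs, 2 above 0.1, and 4 of 12 correlating best with their own number), and the replicate block changed no other call of the 6 genes. Upper-quartile scaling moved the share of higher calls in the CAST minus C57 interaction over all genes to 47.7%, against 59.3% with the main scaling. Depth limits Pdyn most, at 0 to 56 reads per library.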
